A study of Mus musculus with 12 samples.

Results

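The insulin-like growth factor (IGF) genes considered here were the ligands *Igf1* and *Igf2*, the receptors *Igf1r* and *Igf2r*, and the binding protein genes *Igfbp2*, *Igfbp3*, *Igfbp4*, *Igfbp5*, *Igfbp6* and *Igfbp7*. They were found by their symbols in the gene count matrix of mouse tibia shafts, where 10 of 10 were present once each among 47069 genes. All 10 had enough counts to be tested in every comparison.

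RNA was taken from tibia shafts, flushed of marrow, of 12 male mice aged 8 weeks, with n = 4 mice in each of 3 groups and 1 library per mouse. Jrt;Sost-het mice carried a dominant mutation of the type I collagen gene (*Col1a1*Jrt/+), a model of severe osteogenesis imperfecta, and, by the paper's account of the cross, 1 null allele of *Sost*, the gene of the Wnt inhibitor sclerostin (the labels name their *Col1a1* genotype only). Jrt;Sost-ko mice carried the same *Col1a1* mutation on a *Sost*-/- genotype, and WT mice carried neither mutation. All groups were of mixed FVB and C57BL6 background. The WT mice were bred in a parallel colony, so genotype and colony cannot be told apart wherever WT is compared, and no Jrt mice with both *Sost* alleles intact and no *Sost*-/- mice without the Jrt allele were analysed here. Mice were numbered from 1 to 4 within a group in the order of the labels.

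IGF-1 and IGF-2 are secreted peptides that act mainly through the IGF-1 receptor, a tyrosine kinase. The IGF-2 receptor binds IGF-2 and carries it to lysosomes, so that it clears the ligand rather than passing on a growth signal. The binding proteins hold the ligands in serum and in the matrix, can block or prolong their action, and release them when proteases cut them. In bone, IGF-1 is made by osteoblasts and osteocytes as well as reaching the tissue from the liver, and both ligands are stored in the mineralised matrix. Sclerostin is secreted by osteocytes and restrains Wnt signalling in the osteoblast lineage.

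Between 24366061 and 44418863 reads per mouse were counted on genes, and the IGF genes took between 0.136% and 0.193% of them. Values are given as CPM, counts relative to the size of the library after TMM scaling over all 12 libraries. *Sost* had 0.569, 1.28, 0.506 and 0.328 CPM in Jrt;Sost-ko mice 1 to 4, 28.04, 34.5, 70.2 and 27.1 CPM in Jrt;Sost-het mice and 50.2, 72.4, 62.0 and 28.6 CPM in WT mice, so that the lowest values were those of the mice labelled *Sost*-/-. Osteoblast and osteocyte markers were detected in every library. Skeletal muscle markers (16 genes) summed to between 36.0 and 32256 CPM per mouse, lowest in Jrt;Sost-ko mouse 4 and next lowest, at 248 CPM, in WT mouse 2. Epidermal markers (12 genes) summed to 152 and 665 CPM in WT mice 3 and 4 and to at most 12.9 CPM elsewhere. These 4 libraries therefore stood apart in the RNA of other tissues, and values without some of them are given beside estimates that moved. Chondrocyte markers (7 genes measured) also varied widely, from 85.4 to 3684 summed CPM per mouse, within groups as well as between them. Markers of marrow cells remained in every library despite the flushing. Erythroid markers (8 genes) summed to between 15455 and 30177 CPM per mouse, and neutrophil markers (8 genes) to between 15664 and 29047 CPM. A lower level in such bulk RNA may mean fewer cells of a type or less RNA per cell, which cannot be told apart.

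Binding protein transcripts made up most of the IGF transcripts of the tibia shaft. To compare genes, CPM was divided by the length of each gene's merged exons in GENCODE M21 (GRCm38). *Igfbp4*, an inhibitory binding protein that the protease PAPP-A cleaves, averaged 121 ± 14.4 CPM per kb (SD, n = 12 mice). *Igfbp7*, a secreted protein of low affinity for IGFs that is abundant in vessel walls, averaged 114 ± 18.6 CPM per kb. *Igfbp5*, which binds to bone mineral and matrix, averaged 106 ± 15.4 CPM per kb. The ranges of these 3 genes overlapped. *Igfbp4* exceeded *Igfbp7* in 7 of 12 mice, but in 10 of 12 when the longest transcript served as the length. *Igfbp4* exceeded *Igfbp5* in 10 of 12 mice, and *Igfbp7* exceeded *Igfbp5* in 8 of 12. Together they held between 82.1% and 87.4% of the per-length sum of the 10 genes in every mouse, and they ranked 307th, 329th and 349th among 31096 genes with any count.

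The remaining levels formed a descending series. *Igfbp6*, a binding protein that prefers IGF-2, averaged 28.6 ± 7.51 CPM per kb and lay below *Igfbp5* and above *Igf2r* in 12 of 12 mice, without overlap of the ranges. *Igf2r* averaged 11.47 ± 1.29 CPM per kb and *Igfbp3*, the main carrier of IGFs in serum, 10.3 ± 1.91 CPM per kb. The order of these 2 genes depended on the length used: *Igf2r* was higher in 9 of 12 mice with merged exons but in 2 of 12 with the longest transcript. *Igf1* averaged 7.53 ± 1.43 CPM per kb and was below *Igfbp3* in 12 of 12 mice. *Igf2* averaged 3.41 ± 1.24 CPM per kb and was below *Igf1* in 12 of 12 mice, by 2.47-fold on average. Of its 5723 bp of merged exon, *Igf2* shares 3596 bp with *Gm49394*, a gene annotated on the same strand that the count matrix lacks. It also shares 98 bp with the antisense gene *Igf2os*, and the effect of these overlaps on its level was not tested. *Igf1r*, at 1.98 ± 0.186 CPM per kb, was below *Igf2* in 11 of 12 mice, and in 9 of 12 with the longest transcript. *Igfbp2* was the lowest at 1.07 ± 0.321 CPM per kb and was below *Igf1r* in 11 of 12 mice. The clearance receptor *Igf2r* thus exceeded the signalling receptor *Igf1r* per length in each group, by 5.67 ± 1.44-fold in WT, 6.23 ± 0.308-fold in Jrt;Sost-het and 5.69 ± 0.854-fold in Jrt;Sost-ko mice (SD, n = 4 each).

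**Figure D1:**
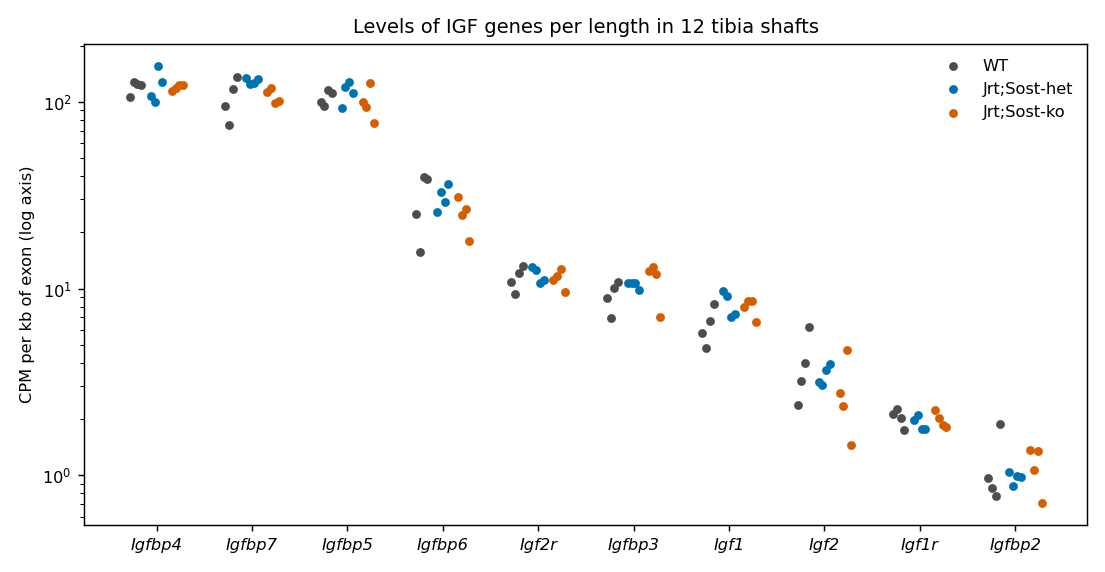
Level of each IGF gene per length (CPM per kb of merged exon, log axis) in 12 tibia shafts, 1 point per mouse, coloured by group and ordered by the mean. *Igfbp4*, *Igfbp7* and *Igfbp5* lie together near the top, and *Igf1r* and *Igfbp2* lie lowest.

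The promoters of *Igfbp4*, the most abundant member, and of *Igfbp7*, the only member whose Jrt groups did not overlap, are shown with their motif matches. Each run holds the 250 bases before the RefSeq transcription start (GRCm38.p6), 5′ to 3′ on the gene's strand, with matches in capitals. All motifs were searched on both strands. The TATA box was searched as TATAAA. The GC box of Sp1-like factors was searched as GGGCGG. The CCAAT box was searched by the letters of its name. The TCF/LEF site of Wnt signalling was searched first as ATCAAAG. Its other form searched was TTCAAAG. *Igfbp4* lies on the plus strand, chr11:99040994-99041243, with a TATA box 28 bases before the start. *Igfbp7* lies on the minus strand, chr5:77408046-77408295, with 4 GC boxes, 1 of them on the opposite strand.
Igfbp4: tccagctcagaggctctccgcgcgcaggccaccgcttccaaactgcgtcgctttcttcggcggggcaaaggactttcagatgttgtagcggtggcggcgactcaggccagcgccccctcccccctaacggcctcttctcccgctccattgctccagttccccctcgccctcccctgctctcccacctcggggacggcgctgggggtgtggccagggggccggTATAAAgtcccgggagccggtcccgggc
Igfbp7: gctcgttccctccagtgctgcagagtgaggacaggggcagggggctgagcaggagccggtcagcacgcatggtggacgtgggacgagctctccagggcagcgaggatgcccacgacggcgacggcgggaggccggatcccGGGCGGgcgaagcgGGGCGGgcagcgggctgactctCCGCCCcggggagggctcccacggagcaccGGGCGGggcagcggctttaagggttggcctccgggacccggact
Of 32851 promoters in the same table, 12.4% held a TATA box, 32.7% a GC box, 33.8% a CCAAT box, and 3.21% and 4.46% the TCF/LEF forms. RefSeq gave 14 starts for the 10 IGF genes. Upstream of these starts, 2 windows held a TATA box, 6 a GC box, 3 a CCAAT box, 0 the first TCF/LEF form and 1, of *Igf1*, the second. A match is a description of the letters and not a binding site.

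In Jrt;Sost-ko versus Jrt;Sost-het mice, the comparison that addresses loss of the remaining *Sost* allele on the OI background, 0 of 10 IGF genes passed an adjusted p of 0.05 (edgeR's quasi-likelihood test, Benjamini-Hochberg over 16739 genes). The background was 0.00597% of genes, *Sost* alone, whose adjusted p was 0.0130. Of the IGF genes, 3 had higher and 7 lower mean estimates, with a median log2 fold change of -0.07 beside 0.00 over all genes, of which 49.6% had an estimate below 0. A log2 fold change refers to the first group named minus the second.

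*Igfbp7* had the smallest unadjusted p of the members in this comparison by edgeR. Its level was 137, 144, 118 and 122 CPM in Jrt;Sost-ko mice 1 to 4 and 163, 151, 152 and 160.1 CPM in Jrt;Sost-het mice. All 4 Jrt;Sost-ko mice lay below all 4 Jrt;Sost-het mice, and this was the only member without overlap, where 3.05% of all genes did not overlap and 1.41% lay below in this way. The means were 130.4 ± 11.96 and 156 ± 5.81 CPM (SD, n = 4), for which the log2 fold change was -0.26 and its standard error 0.0719, or 0.836-fold with a 95% interval of 0.747 to 0.936. By edgeR the unadjusted p was 0.00585, which placed *Igfbp7* 73rd of 16739 genes, and the adjusted p was 0.901. An exact two-sided permutation test gave p = 0.0286, the smallest possible with 4 mice against 4. Any gene whose groups do not overlap gives this value, so it adds nothing to the separation above. It was not adjusted for the number of members. At an unadjusted p under 0.05 it was the only member, where 5.02% of all genes passed and 2.38% were lower in Jrt;Sost-ko mice. The difference therefore did not hold after adjustment over all genes. WT mice, with 115, 91.2, 141 and 165 CPM, spanned the ranges of both Jrt groups.

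Markers of blood vessels moved in the same direction, as did several other marker lists. The endothelial markers (10 genes) summed to between 429 and 504 CPM in Jrt;Sost-ko mice and between 496 and 569 CPM in Jrt;Sost-het mice, and 10 of 10 had lower estimates in Jrt;Sost-ko mice (median log2 fold change -0.13, 0 called by edgeR). None of the 10 markers was at 0 in any library. The muscle markers also had lower estimates in 16 of 16, with a median of -0.99 and 0 called. Chondrocyte markers had lower estimates in 7 of 7 (median -1.75), from 178 to 884 summed CPM in Jrt;Sost-ko and from 288 to 3684 in Jrt;Sost-het mice, and fibroblast and periosteum markers in 7 of 8 (median -0.20), with 0 called in either list. Osteoclast markers had lower estimates in 8 of 8 (median -0.08) and adipocyte markers in 7 of 8 (median -0.11). Osteoblast markers instead had higher estimates in 11 of 12 (median 0.27) and osteocyte markers in 7 of 8 (median 0.39), again with 0 called. With the muscle level as a covariate the log2 fold change of *Igfbp7* was -0.24, and without Jrt;Sost-ko mouse 4 it was -0.23. Apart from the muscle level, the part of these marker lists in the *Igfbp7* difference was not tested. *Igfbp7* shares 85 bp of exon with *Polr2b* on the opposite strand, and the strand setting of the counting is not given in the sources used here. *Polr2b*, a subunit of RNA polymerase II, had a log2 fold change of 0.05 with an adjusted p of 0.931 by edgeR.

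**Figure D2:**
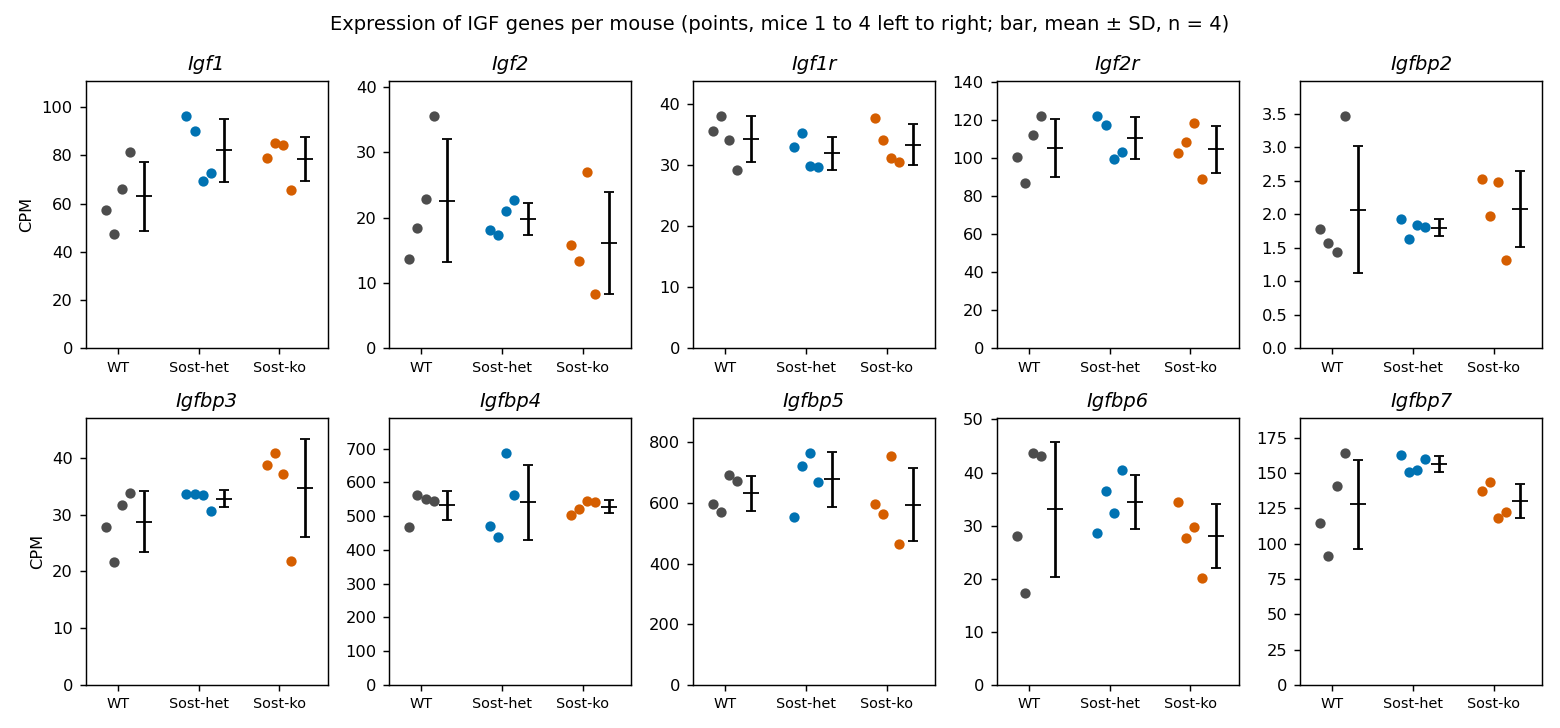
CPM of the 10 IGF genes in each mouse, by group, with each axis starting at 0. Points are mice 1 to 4 from left to right, and bars give the mean ± SD (n = 4). The 4 Jrt;Sost-ko mice lie below the 4 Jrt;Sost-het mice for *Igfbp7*, and the groups overlap in each of the other panels.

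Both ligands overlapped between the Jrt groups. *Igf1* had 79.1, 85.1, 84.4 and 65.6 CPM in Jrt;Sost-ko mice 1 to 4 and 96.4, 90.002, 69.4 and 72.7 CPM in Jrt;Sost-het mice, a log2 fold change of -0.06 with a 95% interval of the fold of 0.787 to 1.17. *Igf2* had 15.9, 13.4, 26.9 and 8.29 CPM in Jrt;Sost-ko mice, where mouse 4 was the lowest of all 12, and 18.1, 17.4, 20.98 and 22.7 CPM in Jrt;Sost-het mice. Its log2 fold change of -0.29 had a 95% interval of the fold of 0.508 to 1.32. This *Igf2* estimate was -0.077 without Jrt;Sost-ko mouse 4 and -0.66 without Jrt;Sost-ko mouse 3, the highest of that group. With the muscle level as a covariate it was -0.0015.

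Receptor levels differed little. *Igf1r* had 37.7, 34.1, 31.1 and 30.5 CPM in Jrt;Sost-ko mice and 33.0, 35.3, 29.8 and 29.7 CPM in Jrt;Sost-het mice, and the 95% interval of the fold was 0.907 to 1.21. *Igf2r* had 103, 108, 118 and 88.8 CPM in Jrt;Sost-ko mice and 122, 117, 99.2 and 103 CPM in Jrt;Sost-het mice, with an interval of 0.809 to 1.12. Without Jrt;Sost-ko mouse 4 the *Igf2r* estimate of -0.07 was -0.0072, the *Igf1r* estimate of 0.07 was 0.10, and that of *Igf1* was 0.013.

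The other binding proteins also overlapped. *Igfbp6* had the lowest estimate, with 34.5, 27.7, 29.8 and 20.05 CPM in Jrt;Sost-ko mice, 28.6, 36.5, 32.4 and 40.4 CPM in Jrt;Sost-het mice and an estimate of -0.30 on the log2 scale (standard error 0.169). The *Igfbp6* estimate was -0.17 without Jrt;Sost-ko mouse 4 and -0.10 with the muscle level as a covariate. *Igfbp5* had 597, 563, 756 and 463 CPM in Jrt;Sost-ko mice and 553, 723, 767 and 668 CPM in Jrt;Sost-het mice. Jrt;Sost-ko mouse 4 was the lowest of all 12 for *Igfbp5* as well, and the estimate of -0.18 (interval of the fold 0.686 to 1.13) was -0.085 without that mouse and -0.32 without Jrt;Sost-ko mouse 3. *Igfbp3* had 38.8, 41.0, 37.3 and 21.9 CPM in Jrt;Sost-ko mice and 33.6, 33.6, 33.5 and 30.7 CPM in Jrt;Sost-het mice. For *Igfbp3*, 3 of 4 Jrt;Sost-ko mice lay above every Jrt;Sost-het mouse while mouse 4 lay below them, and the log2 fold change of 0.08 was 0.25 without that mouse. *Igfbp2*, the least abundant member, had 2.52, 1.97, 2.48 and 1.31 CPM in Jrt;Sost-ko mice and 1.93, 1.62, 1.84 and 1.80 CPM in Jrt;Sost-het mice, with the same split of 3 mice above and mouse 4 below. The *Igfbp2* estimate of 0.21 was 0.37 without mouse 4.

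*Igfbp4* is of interest by position. It lies on chromosome 11 (chr11:99041244-99054392, GRCm38) between *Col1a1*, 4.09 Mb away, and *Sost*, 2.91 Mb away, the interval in which a crossover joined the Jrt and *Sost* null alleles on 1 chromosome. Its level was 503, 522, 544 and 541 CPM in Jrt;Sost-ko mice, 472, 439, 688 and 563 CPM in Jrt;Sost-het mice and 468, 564, 551 and 546 CPM in WT mice. The Jrt;Sost-ko values fell inside the range of the other groups, with a log2 fold change of -0.03 (interval of the fold 0.793 to 1.21) against Jrt;Sost-het and of -0.01 (interval 0.872 to 1.13) against WT. *Igfbp3* is on the same chromosome but 94.7 Mb from *Sost*.

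**Figure D3:**
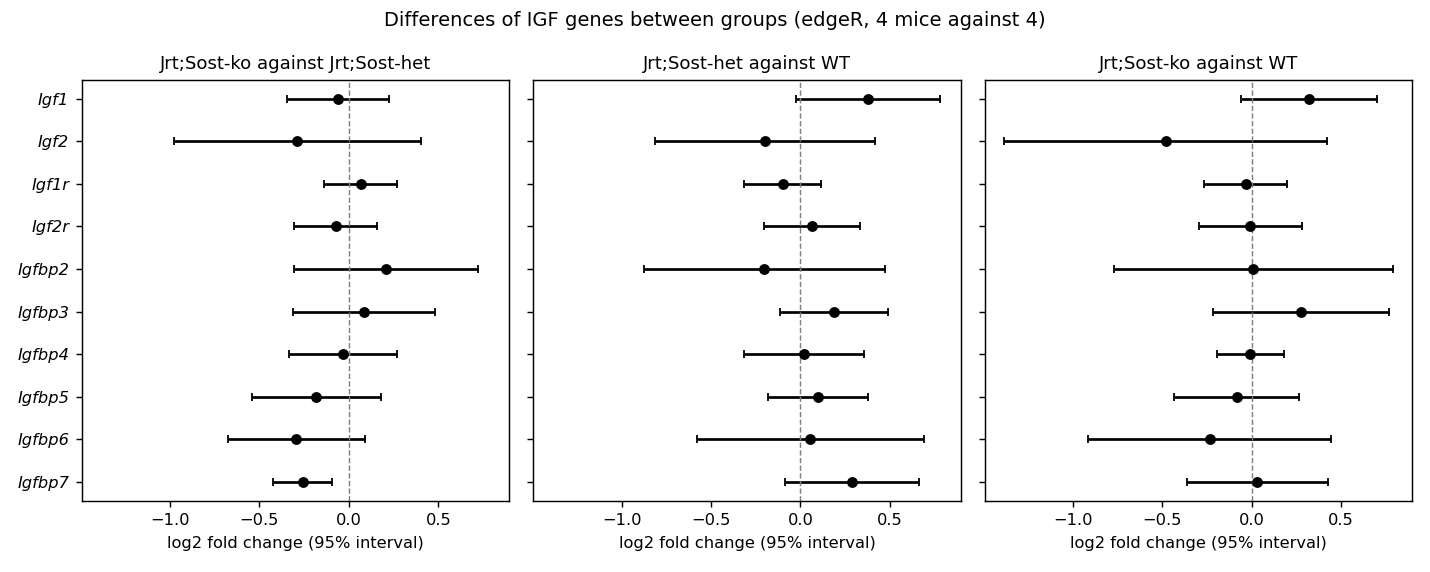
Log2 fold changes of the 10 IGF genes with 95% intervals from edgeR, for each pair of groups (4 mice against 4). Positive values are higher in the first group named, and the interval of *Igfbp7* in Jrt;Sost-ko versus Jrt;Sost-het mice is the only one of the 30 that does not include 0.

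Against WT mice, which are shared by the following comparisons, 0 of 10 IGF genes passed in Jrt;Sost-het mice (background 0% of 16775 genes, 2.14% at an unadjusted p under 0.05), 0 of 10 in Jrt;Sost-ko mice (background 0.00583% of 17155 genes, *Sost* alone, and 3.89% at an unadjusted p under 0.05) and 0 of 10 with both Jrt groups combined (background 0.0058% of 17245 genes, again *Sost* alone), by edgeR with Benjamini-Hochberg adjustment. No member had groups free of overlap, where 1.5% of genes did in the first comparison, 2.35% in the second and 0.168% in the third. At an unadjusted p under 0.05 the members numbered 0, 0 and, in the combined comparison, 1, *Igf1*, where 3.21% of all genes passed and 1.96% passed with a higher level in Jrt mice.

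*Igf1*, the growth-hormone-responsive ligand, had the highest estimate against WT in each of these comparisons. WT mice 1 to 4 had 57.2, 47.5, 66.3 and 81.4 CPM, a mean of 63.1 ± 14.4, beside 82.1 ± 13.1 CPM in Jrt;Sost-het and 78.6 ± 9.05 CPM in Jrt;Sost-ko mice (SD, n = 4). Of 8 Jrt mice, 4 lay above every WT mouse, WT mouse 4 reached the level of the Jrt mice, and WT mouse 2 was the lowest of all 12. The log2 estimate against WT was 0.38 for Jrt;Sost-het (standard error 0.177) and 0.32 for Jrt;Sost-ko mice (standard error 0.166). For both Jrt groups together it was 0.35 (standard error 0.141), or 1.27-fold with a 95% interval of 1.03 to 1.58. By edgeR the unadjusted p was 0.0300 and the adjusted p 0.999, and an exact two-sided permutation test gave p = 0.0323, where the smallest possible was 0.00202, so that the difference did not hold after adjustment. Its size depended on WT mice: the log2 fold change was 0.24 without WT mouse 2, 0.50 without WT mouse 4 and 0.62 without WT mice 3 and 4, where the adjusted p by edgeR was 0.153. Without Jrt;Sost-ko mouse 4 and WT mouse 2 it was 0.28, a setting chosen after the data were seen. All 12 osteoblast markers had higher estimates than in WT, with a median log2 fold change of 0.32 and 0 called by edgeR. Adipocyte markers had higher estimates in 8 of 8 (median 0.48) and fibroblast and periosteum markers in 7 of 8 (median 0.36), with 0 called in either list. Osteocyte markers had higher estimates in 8 of 8 (median 0.29) and muscle markers lower ones in 16 of 16 (median -0.41), again with 0 called. Neutrophil and erythroid markers had lower estimates in 8 of 8 each (medians -0.15 and -0.12), with 0 called. For both Jrt groups together the *Igf1* estimate lay between 0.24 and 0.62 under every alternative, the muscle level as a covariate among them. Apart from the muscle level, the part of these lists in the *Igf1* difference was not tested.

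*Igf2* and *Igfbp6* had estimates against WT that depended on the WT mice used. *Igf2* had 13.7, 18.3, 22.8 and 35.6 CPM in WT mice, and mouse 4 was the highest of all 12. Its log2 fold change was -0.20 in Jrt;Sost-het mice (standard error 0.269) and -0.48 in Jrt;Sost-ko mice (standard error 0.395), and without WT mice 3 and 4, those with the most epidermal transcripts, it was 0.31 and 0.01. *Igfbp6* had 28.0001, 17.3, 43.8 and 43.1 CPM in WT mice, with mice 3 and 4 above all 8 Jrt mice and mouse 2 below them. Its estimate against WT was 0.06 in Jrt;Sost-het mice (standard error 0.277) and -0.24 in Jrt;Sost-ko mice (standard error 0.297). Without WT mice 3 and 4 these were 0.61 and 0.30, and without WT mouse 2 they were -0.15 and -0.45. The estimate of -0.09 for both Jrt groups together became 0.45 without WT mice 3 and 4, and these mice also had 2 of the 3 highest muscle levels. No direction against WT was established for either gene.

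*Igfbp7* had an estimate against WT of 0.29 in Jrt;Sost-het mice and of 0.03 in Jrt;Sost-ko mice, which became 0.61 and 0.34 without WT mice 3 and 4 and 0.16 and -0.10 without WT mouse 2. *Igfbp3*, with 27.9, 21.7, 31.7 and 33.9 CPM in WT mice, had 0.19 and 0.27, and 3 of 4 Jrt;Sost-ko mice lay above every WT mouse. The *Igfbp3* estimates were 0.41 and 0.49 without WT mice 3 and 4, 0.078 and 0.16 without WT mouse 2, and in Jrt;Sost-ko mice 0.44 without Jrt;Sost-ko mouse 4. *Igfbp5* had 598, 570.0, 692 and 672 CPM in WT mice and estimates of 0.10 and -0.08, or 0.22 and 0.028 without WT mice 3 and 4. The receptors had 35.5, 38.0, 34.2 and 29.2 CPM of *Igf1r* and 100.4, 86.9, 112 and 122 CPM of *Igf2r* in WT mice. The *Igf1r* estimates were -0.10 and -0.03, and those of *Igf2r* were 0.06 and -0.01. Without WT mice 3 and 4 they were -0.19 and -0.14 for *Igf1r* and 0.24 and 0.16 for *Igf2r*. *Igfbp2* had 1.78, 1.57, 1.44 and 3.46 CPM in WT mice, where mouse 4 stood far above the others, and its estimate of -0.20 in Jrt;Sost-het mice was 0.16 without that mouse. In Jrt;Sost-ko mice the *Igfbp2* estimate against WT was 0.0082, and 0.30 without WT mice 3 and 4. Each interval of these folds included 1.

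The IGF genes differed in how far mice of the same group varied. The standard deviation of log2 CPM within groups was 0.53 for *Igf2*, 0.43 for *Igfbp6* and 0.41 for *Igfbp2*, beside a median of 0.20 over 17245 genes, and these 3 lay above 87.0%, 80.1% and 78.4% of genes. *Igf1r* varied least, at 0.14, above 34.3% of genes. The highest mouse exceeded the lowest by 4.29-fold for *Igf2* and by 1.30-fold for *Igf1r*. Jrt;Sost-ko mouse 4 was among the 3 lowest mice for 7 of the 10 genes, and WT mouse 2 for 6.

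Several members followed the level of muscle, osteoblast or endothelial markers across the 12 mice. Each member was set against the mean log2 CPM of 4 marker lists (skeletal muscle, osteoblast, endothelium and adipocyte), 40 relations in all, with 100000 permutations and Benjamini-Hochberg adjustment. The rest of the 14 marker lists, fibroblast and periosteum and osteocyte markers among them, were not set against the members. A relation to a list is therefore not shown to be particular to that list. The permutations shuffled all 12 mice without regard to group, so differences between groups also enter these relations. *Igfbp6* followed the muscle list, with Pearson's r = 0.90 (permutation p = 0.00012, adjusted 0.0016), Spearman's rho = 0.90 (permutation p = 0.00024, adjusted 0.0048) and r = 0.84 without the 2 mice farthest from the median muscle level, Jrt;Sost-ko mouse 4 and WT mouse 2. *Igf2* followed it with r = 0.80 (permutation p = 0.00177, adjusted 0.0118), rho = 0.82 (permutation p = 0.00193, adjusted 0.0154) and r = 0.83 without the same mice. *Igfbp5* had r = 0.81 (adjusted permutation p = 0.00824), rho = 0.71 (adjusted permutation p = 0.0658) and r = 0.62 without them. For *Igf2r* and *Igfbp3* the relation with muscle rested on these 2 mice, since r fell from 0.68 (adjusted permutation p = 0.0457) to 0.08 and from 0.71 (adjusted permutation p = 0.0457) to -0.17.

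*Igf1* followed the osteoblast list instead, with r = 0.90 (permutation p = 7e-05, adjusted 0.0014), rho = 0.82 (permutation p = 0.00158, adjusted 0.0154) and r = 0.72 without WT mice 1 and 2, the farthest from the median. *Igfbp3* also followed it, with r = 0.77 (permutation p = 0.00417, adjusted 0.0238), rho = 0.85 (permutation p = 0.00081, adjusted 0.0108) and r = 0.60 without them. *Igfbp7* followed the endothelial list, with r = 0.89 (permutation p = 0.00026, adjusted 0.0026), rho = 0.76 (permutation p = 0.00586, adjusted 0.0391) and r = 0.74 without WT mouse 2 and Jrt;Sost-ko mouse 4. *Igfbp6* followed the endothelial list as closely as the muscle list, with r = 0.91 (permutation p = 6e-05, adjusted 0.0014), rho = 0.91 (permutation p = 0.00015, adjusted 0.0048) and r = 0.79 without these mice. The Pearson test alone also passed for *Igf2r* with the osteoblast list, with r = 0.73 (permutation p = 0.00763, adjusted 0.0339), rho = 0.71 (permutation p = 0.0132, adjusted 0.0658) and r = 0.58 without WT mice 1 and 2. It did so for *Igf2r* with the endothelial list, with r = 0.73 (permutation p = 0.00711, adjusted 0.0339) and rho = 0.66 (permutation p = 0.0220, adjusted 0.0801), and r was 0.37 without the 2 farthest mice. For *Igf1* with the endothelial list r was 0.70 (permutation p = 0.0110, adjusted 0.0441) and rho 0.45 (permutation p = 0.146, adjusted 0.344), and r was 0.34 without the same mice. These last 2 relations rested on those mice. The endothelial and muscle lists were themselves related, with r = 0.82 between them, so their relations to *Igfbp6* were not separated. No member passed for the adipocyte list, where r lay between -0.24 and 0.57. For *Igfbp7* with the endothelial list, r by group was 0.998 (WT), 0.14 (Jrt;Sost-het) and 0.19 (Jrt;Sost-ko), from 4 mice each. A close relation within the Jrt groups was therefore not shown for this pair. The other pairs that passed both tests are given in the same order of groups, again from 4 mice each. With the osteoblast list *Igf1* had 0.99, 0.96 and 0.98, and *Igfbp3* 0.91, 0.39 and 0.90. With the muscle list *Igfbp6* had 0.99, 0.87 and 0.96, and *Igf2* 0.67, 0.84 and 0.90. *Igfbp6* with the endothelial list had 0.96, 0.93 and 0.96. The r values within groups were not tested.

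**Figure D4:**
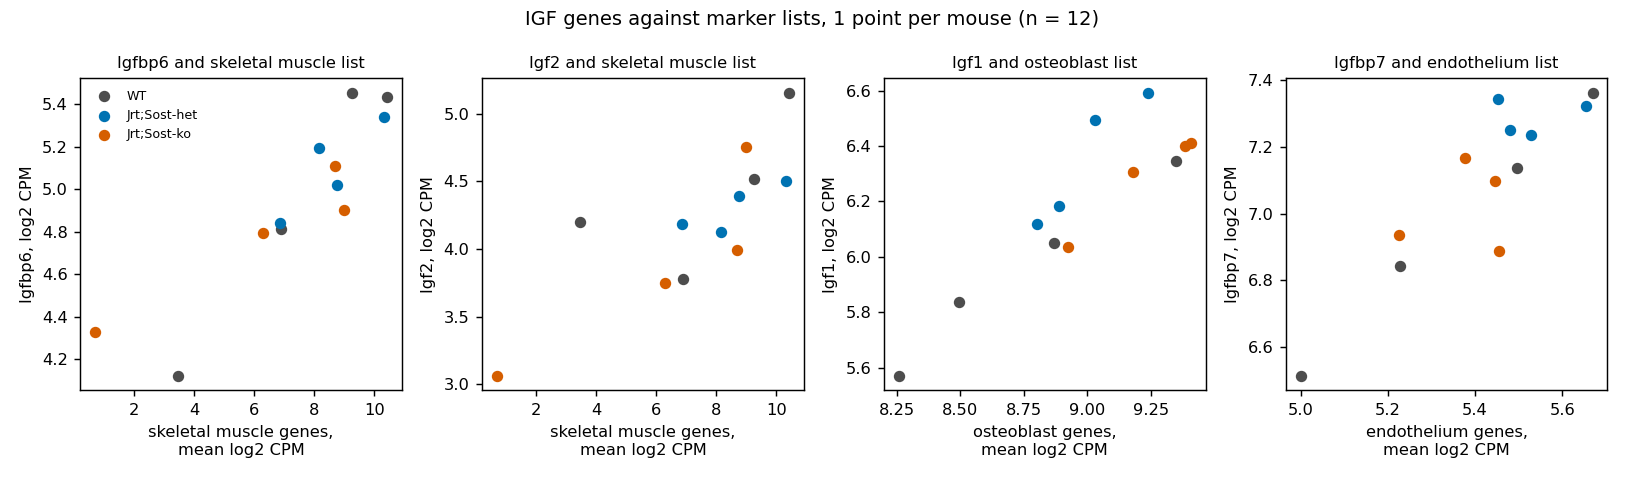
Log2 CPM of *Igfbp6* and *Igf2* against the mean log2 CPM of the skeletal muscle list, of *Igf1* against the osteoblast list and of *Igfbp7* against the endothelium list, 1 point per mouse (n = 12), coloured by group. All 4 panels rise from left to right, with r = 0.90, 0.80, 0.90 and 0.89, and the isolated points at low muscle levels are Jrt;Sost-ko mouse 4 and WT mouse 2.

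The genes closest in pattern to each member over the 12 mice were taken as the 3 with the highest r of log2 CPM among 17245 genes. *Igf1* lay closest to *Lum*, the matrix proteoglycan lumican (r = 0.96), *Plod1*, a collagen lysyl hydroxylase (r = 0.95), and *Arfip2* (r = 0.95). *Igf2* lay closest to *Adamtsl3* (r = 0.95), *Gm6560* and *Aldoart1* (r = 0.94 and 0.93), of which *Aldoart1* is a copy of an aldolase gene whose reads may be shared with that gene. *Igfbp6* lay closest to *Gm11716* (r = 0.97), *Fabp3*, a fatty acid carrier of heart and muscle (r = 0.96), and *Asb15* (r = 0.96). *Igfbp7* lay closest to *Sema3g*, a semaphorin of endothelial cells (r = 0.94), *Olfr558* (r = 0.94) and *Trim47* (r = 0.92).

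For *Igf2r* the closest were *Pkd1*, *Angptl2* and *Arhgap5* (r = 0.96, 0.96 and 0.95), and for *Igf1r* they were *Vps13b*, *Herc1* and *Akap13* (r = 0.94, 0.93 and 0.92). *Igfbp3* was closest to *Peak1*, *Adarb1* and *Flrt2* (r = 0.94 each), and *Igfbp4* to *Tdrd3*, *Gas6* and *Drg2* (r = 0.91, 0.90 and 0.88). *Igfbp5* was closest to *Hoxd3os1*, *Tmem100* and *Upp2* (r = 0.90, 0.89 and 0.88), and *Igfbp2* to *Lclat1*, *Nav2* and *Catip* (r = 0.88 each). Among the members themselves the closest pair was *Igf1* and *Igf2r* (r = 0.81), followed by *Igf1* and *Igfbp3* (r = 0.77). Some of the nearest genes had low mean levels: 0.26 CPM for *Aldoart1*, 0.29 for *Catip*, 0.62 for *Hoxd3os1*, 1.09 for *Gm11716*, 1.34 for *Upp2* and 1.63 for *Gm6560*. These r values share libraries and scaling and are descriptions only.

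Beyond the 10 members, 5 of 8 remaining genes of the family and insulin receptors had 11 counts or fewer in all 12 libraries. *Ins1* and *Ins2*, the insulin genes, had 0 counts among the 386516672 counts of all 12 libraries, which allows a level of up to 0.00776 CPM (counting error only). *Igfbp1*, 3540 bp from *Igfbp3* on chromosome 11, had 1 count, *Igfbpl1* 6 and *Insrr* 11. Of this list, *Insr*, *Igfals* and *Kazald1* were tested and 0 were called in any comparison. *Kazald1*, an IGF-binding-protein-related gene of bone, had the smallest p of the list in every comparison, with 66.6 ± 9.45, 55.1 ± 6.73 and 46.8 ± 17.8 CPM in Jrt;Sost-ko mice, Jrt;Sost-het mice and WT mice. Between the Jrt groups its log2 estimate was 0.28 (standard error 0.119), with an unadjusted p of 0.0440 and an adjusted p of 0.901 by edgeR.

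The listed genes that promote or inhibit the release of IGFs from binding proteins were all measured. This list held the proteases *Pappa*, *Pappa2*, *Adam12*, *Htra1* and *Htra3* and the stanniocalcin inhibitors *Stc1* and *Stc2*. Against WT, 7 of 7 had higher estimates in Jrt;Sost-het mice (median log2 fold change 0.31) and likewise in Jrt;Sost-ko mice (median 0.20), beside 51.3% and 49.1% of all genes above 0, and 0 were called. The smallest p were those of *Pappa2* in Jrt;Sost-het mice (0.88, standard error 0.563) and of *Stc1* in Jrt;Sost-ko mice (0.51, standard error 0.419), where the errors were of the order of the estimates. Fibroblast and periosteum markers moved alongside, with 8 of 8 higher in Jrt;Sost-het and 6 of 8 in Jrt;Sost-ko mice than in WT (medians 0.41 and 0.16). Osteoblast markers were higher in 12 of 12 in both groups (medians 0.19 and 0.47) and adipocyte markers in 8 of 8 (medians 0.47 and 0.40). Neutrophil markers were lower in 8 of 8 in both groups (medians -0.10 and -0.19). Erythroid markers were lower in 8 of 8 and 7 of 8 (medians -0.19 and -0.08). Endothelial markers were higher in 9 of 10 and 6 of 10 (medians 0.21 and 0.0051). Chondrocyte markers were higher in 7 of 7 in Jrt;Sost-het mice (median 0.42) but lower in 7 of 7 in Jrt;Sost-ko mice (median -1.26). The part of these lists was not tested. In Jrt;Sost-ko versus Jrt;Sost-het mice 3 of 7 had higher estimates, with a median of -0.09, and *Pappa2* had the smallest p (-0.68, standard error 0.440).

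Signalling genes downstream of the receptors lay close to the median of all genes. Of 31 genes listed, 30 were tested (*Irs4* had 0 counts), 0 were called, and the median log2 fold change was 0.03 in Jrt;Sost-ko versus Jrt;Sost-het mice, -0.0038 in Jrt;Sost-het mice against WT and 0.02 in Jrt;Sost-ko mice against WT. *Foxo4*, a transcription factor that insulin and IGF signals inactivate, had the smallest p in Jrt;Sost-ko mice, with a log2 fold change of -0.19 (standard error 0.0602) against WT and -0.13 (standard error 0.0697) against Jrt;Sost-het mice. *Foxo1* had it in Jrt;Sost-het against WT (0.13, standard error 0.0850).

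Of 8 growth hormone signalling genes, 8 were tested and 0 were called, with medians of -0.04 in Jrt;Sost-ko versus Jrt;Sost-het mice and against WT of 0.25 in Jrt;Sost-het mice and 0.11 in Jrt;Sost-ko mice. The smallest p belonged to *Cish* (-0.42, standard error 0.238), *Socs3* (0.36, standard error 0.155), both feedback inhibitors of cytokine signalling, and *Stat5b* (-0.15, standard error 0.0467), the transcription factor that growth hormone activates, in that order of comparisons. Of 12 imprinted genes and RNA-binding regulators of *Igf2*, 10 were tested and 0 were called. In Jrt;Sost-ko versus Jrt;Sost-het mice 9 of 10 had lower estimates, with a median of -0.15, beside 49.6% of all genes, and *Cdkn1c*, an imprinted growth inhibitor, had the smallest p (-0.35, standard error 0.199). The muscle and chondrocyte markers had lower medians in the same comparison (-0.99 and -1.75), and their part was not tested. Against WT, 9 of 10 had higher estimates in Jrt;Sost-het mice (median 0.27) and 6 of 10 in Jrt;Sost-ko mice (median 0.05). *Igf2bp3* had it in Jrt;Sost-het (0.34, standard error 0.182) and *Mest* in Jrt;Sost-ko mice (0.44, standard error 0.392) against WT.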

How the data were processed

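RNA of the tibia shafts of 12 male mice (4 WT, 4 Jrt;Sost-het and 4 Jrt;Sost-ko) was sequenced by the authors in paired-end mode, aligned to GRCm38 with STAR and counted on Ensembl genes. The deposited matrix holds raw counts, whole numbers without normalization. The counting tool and its strand setting are not given in the sources used here. The authors' comparison tables, with log2 fold changes and p-values, were not used, nor were the count files of single mice, whose values the matrix repeats.

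Counts were tested in R 4.3.3 with edgeR 4.0.16 (filterByExpr, TMM, glmQLFit, glmQLFTest), each pair of groups on its own 8 mice and both Jrt groups against WT on all 12, with Benjamini-Hochberg adjustment over all genes tested and a threshold of 0.05. Standard errors were the absolute log2 fold change divided by the square root of F. Log2 CPM had a prior count of 2, and permutation tests of single members were exact and two-sided. GENCODE M21 gave positions and lengths and held 98.9% of the identifiers. Fits were tested on simulated counts. Libraries held between 24366061 and 44418863 counts, and *Igfbp2*, the lowest member, had at least 40 counts per mouse.

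The members and the gene lists were chosen with earlier results of these data known. Named genes were all members, list genes with an adjusted p under 0.05 or otherwise the gene with the smallest p of each list, and the 3 genes nearest in pattern to each member. The mice are separate animals, and no batch is labelled. Alternatives were DESeq2 1.42.0, its size factors in edgeR, upper-quartile scaling, no filter on low counts or a minimum of 10 in each mouse, a joint fit of the 12 mice, limma-voom with quality weights (limma 3.58.1), the muscle level as a covariate, scaling without muscle, epidermal, erythroid and neutrophil genes, and leaving out mice.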

Additional observations from a re-analysis of the deposited data

Results flagged for a closer look

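In 30 sets of 4 mice (10 genes in 3 groups), the gap between an extreme mouse and its nearest neighbour was divided by the whole range of the group and set against the 95% critical value of Dixon's test. This passed for 2 sets, where chance gives about 1 in 20 groups. *Igfbp2* in WT mouse 4 was the highest, at 3.46 CPM against 1.44 to 1.78 CPM in the other WT mice (ratio 0.830), in a library that also held epidermal markers at 665 summed CPM and the highest muscle level. *Igfbp3* in Jrt;Sost-het mouse 4 was the lowest, at 30.7 CPM against 33.5 to 33.6 CPM (ratio 0.943), a gap that is small in size and arises where the other mice lay very close together.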

How the results depend on the processing

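No IGF gene passed an adjusted p of 0.05 in any of the 4 comparisons under any alternative run, and the smallest adjusted p was 0.114 (*Igfbp7*, Jrt;Sost-het against WT without WT mice 3 and 4). Of 770 alternative estimates of the log2 fold change, 693 kept the sign. The estimate of *Igfbp7* in Jrt;Sost-ko versus Jrt;Sost-het mice was negative under all 17 alternatives, from -0.31 to -0.20 (adjusted p at least 0.400), and that of *Igf1* for both Jrt groups against WT was positive under all 23, from 0.24 to 0.62 (adjusted p at least 0.153).

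Counts of all genes called moved more than members did. DESeq2 called 18 genes in Jrt;Sost-ko versus Jrt;Sost-het, 4 in Jrt;Sost-het against WT, 17 in Jrt;Sost-ko against WT and 34 for both Jrt groups against WT, where edgeR called 1, 0, 1 and 1. limma-voom called 0, 0, 2 and 0. The count was 0 in Jrt;Sost-ko versus Jrt;Sost-het with muscle as a covariate, 2 in Jrt;Sost-ko against WT with no filter, and 0 for both Jrt groups with the 8 Jrt mice as 1 group. It was 0 in Jrt;Sost-ko against WT and for both Jrt groups without Jrt;Sost-ko mouse 4 and WT mouse 2, a setting chosen after the data were seen. Leaving out 1 mouse at a time, it ranged from 0 to 3 in Jrt;Sost-ko versus Jrt;Sost-het (2 and 3 without Jrt;Sost-het mouse 2 and 3, 0 without Jrt;Sost-ko mouse 1, 3 or 4), from 0 to 2 in Jrt;Sost-ko against WT (2 without WT mouse 4, 0 without WT mouse 1 or 3 or Jrt;Sost-ko mouse 1, 3 or 4) and from 0 to 1 for both Jrt groups (0 without WT mouse 3, Jrt;Sost-het mouse 2 or Jrt;Sost-ko mouse 1 or 3). The cause was not tested.

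Each sign that turned was of an estimate whose 95% interval included 0, and the cause was not tested. Without WT mice 3 and 4, *Igf2* was 0.31 in Jrt;Sost-het, 0.014 in Jrt;Sost-ko and 0.16 in both Jrt groups against WT, *Igfbp2* was 0.11 in Jrt;Sost-het and 0.20 in both, *Igfbp6* was 0.30 in Jrt;Sost-ko and 0.45 in both, and in Jrt;Sost-ko *Igf2r* was 0.16, *Igfbp4* 0.033 and *Igfbp5* 0.028. With limma-voom, *Igf1r* was 0.0010 and *Igf2r* 0.017 in Jrt;Sost-ko against WT, *Igfbp2* was 0.064 in Jrt;Sost-het and 0.19 in both Jrt groups, *Igfbp4* was -0.013 in Jrt;Sost-het, -0.016 in both and 0.0071 in Jrt;Sost-ko versus Jrt;Sost-het, and *Igfbp5* was -0.0059 in both. With muscle as a covariate, *Igf2r* was 0.068 in Jrt;Sost-ko and *Igfbp6* -0.051 in Jrt;Sost-het against WT. In Jrt;Sost-ko against WT, *Igfbp2* was -0.0022 with no filter, -0.0051 with upper-quartile scaling and -0.0067 with scaling without other tissues. For both Jrt groups, *Igfbp4* and *Igfbp5* were -0.0047 and -0.0039 with upper-quartile scaling and -0.0063 and -0.0059 with scaling without other tissues. Without Jrt;Sost-ko mouse 4 and WT mouse 2, *Igf1r* was 0.065 in Jrt;Sost-ko and 0.0092 in both, *Igf2r* -0.016 in both, *Igfbp4* 0.012 and *Igfbp7* -0.066 in Jrt;Sost-ko against WT.

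Leaving out 1 mouse at a time gave these ranges where a sign turned. In Jrt;Sost-ko versus Jrt;Sost-het they were -0.14 to 0.022 for *Igf1*, -0.0035 to 0.12 for *Igf1r*, -0.0032 to 0.25 for *Igfbp3* and -0.12 to 0.10 for *Igfbp4*. In Jrt;Sost-het against WT they were -0.37 to 0.11 for *Igf2*, -0.015 to 0.14 for *Igf2r*, -0.34 to 0.16 for *Igfbp2*, -0.11 to 0.11 for *Igfbp4* and -0.15 to 0.22 for *Igfbp6*. In Jrt;Sost-ko against WT they were -0.11 to 0.019 for *Igf1r*, -0.091 to 0.068 for *Igf2r*, -0.14 to 0.38 for *Igfbp2*, -0.068 to 0.018 for *Igfbp4*, -0.23 to 0.017 for *Igfbp5* and -0.10 to 0.17 for *Igfbp7*. For both Jrt groups they were -0.054 to 0.11 for *Igf2r*, -0.24 to 0.28 for *Igfbp2*, -0.064 to 0.048 for *Igfbp4*, -0.070 to 0.060 for *Igfbp5* and -0.30 to 0.074 for *Igfbp6*. With the longest transcript as the length, the share of the per-length sum was 2.44% for *Igf1*, 0.681% for *Igf1r*, 0.348% for *Igfbp2* and 3.06% for *Igfbp3*, against 1.86%, 0.495%, 0.264% and 2.53% with merged exons.

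No paired analysis was possible because the labels give the mice no replicate numbers shared across groups.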
